A study of Mus musculus with 2 samples.

Results

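The genes described here are the amino acid and peptide transporters of the solute carrier (Slc) superfamily, measured by total RNA sequencing in the intestine of mouse embryos. They were chosen by name alone, as the protein-coding genes of families Slc1, Slc3, Slc6, Slc7, Slc15, Slc36, Slc38 and Slc43. The rule gives 66 genes of 21474 protein-coding genes and 43346 gene identifiers in all. The rule uses no measured value, but it was set with earlier results of these data known. Relatives whose symbol carries a further letter, such as Slc6a20a, fall outside the rule.

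The tissue came from embryos of the strain B6NCrl at embryonic day 16.5, without a treatment or a genetic change in the labels. There were 2 libraries of a single group, called replicate 1 and replicate 2. Each was made from 10 ng of RNA longer than 200 nt from pooled male and female embryos, and both biosamples share a donor identifier. The labels count 41 embryos for replicate 2 and state no number for replicate 1. Because there is no second condition, the comparisons are between transporters within the tissue and between the pools. With n = 2 the smallest 2-sided p of an exact sign-flip test is 0.5, so no p-values are given.

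The small intestine absorbs dietary protein both as free amino acids and as short peptides. Carriers in the brush border of enterocytes, the absorptive cells of the villus, bring these in from the lumen, mostly driven by sodium ions or protons, and other carriers in the basolateral membrane exchange or release them towards the blood. Several carriers are pairs of proteins, in which a heavy chain (Slc3a1 or Slc3a2) takes a light chain of the Slc7 family to the membrane. Other members of the same families serve nerve cells, glia, kidney or the lysosome.

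Levels are in TPM (transcript abundance scaled to a fixed total in each library), which corrects for transcript length, so that levels of different genes can be set side by side. Where a pair of values is given, the first is replicate 1 and the second is replicate 2, and ± is the SD of both libraries (n = 2). The gene tables held 41279206 and 40758084 estimated counts, of which 0.224% and 0.248% fell on the 66 transporters. Gene counts of the libraries differed well beyond sampling noise, with a chi-square per degree of freedom of 20.6 over 18089 genes, which was examined only to see whether a library had been deposited in duplicate. Checked against the tissue label, 6 of 6 gut epithelial markers were detected and summed to 4551 and 4800 TPM. Markers of other tissues were also present. Pancreatic acinar markers summed to 4726 and 6192 TPM with 6 of 6 detected, hepatocyte markers to 170 and 70.7 TPM with 5 of 5 detected, and steroid cell markers to 25.6 and 6.21 TPM with 1 of 3 detected. Kidney tubule markers, of interest because several of these carriers also work in kidney, were at or near 0. None of 5 was detected, Umod and Kap had no count, and the summed level was 0.07 and 0.04 TPM.

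A level of 1 TPM or more in each library was the threshold for detection. By this threshold 39 of the 66 transporters (59.1%) were detected, beside 62.0% of all protein-coding genes and 68.7% of 268 other Slc genes. The transporters together took 1004 and 1157 TPM, or 0.1004% and 0.116% of all TPM (0.108 ± 0.0108%). A few genes held most of this sum. The 5 highest took 43.6% and the 10 highest took 66.4% of it, while 2 genes stood at a mean of 100 TPM or more and 23 at 10 or more. The median transporter stood at 2.80 TPM, the median protein-coding gene at 4.45 and the median of the other Slc genes at 5.78. Detection ran from 3 of 3 genes in family SLC43 and 2 of 2 in SLC3, over 9 of 11 in SLC38 and 10 of 15 in SLC7, to 3 of 5 in SLC15, 2 of 4 in SLC36, 3 of 7 in SLC1 and 7 of 19 in SLC6.

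**Figure D1:**
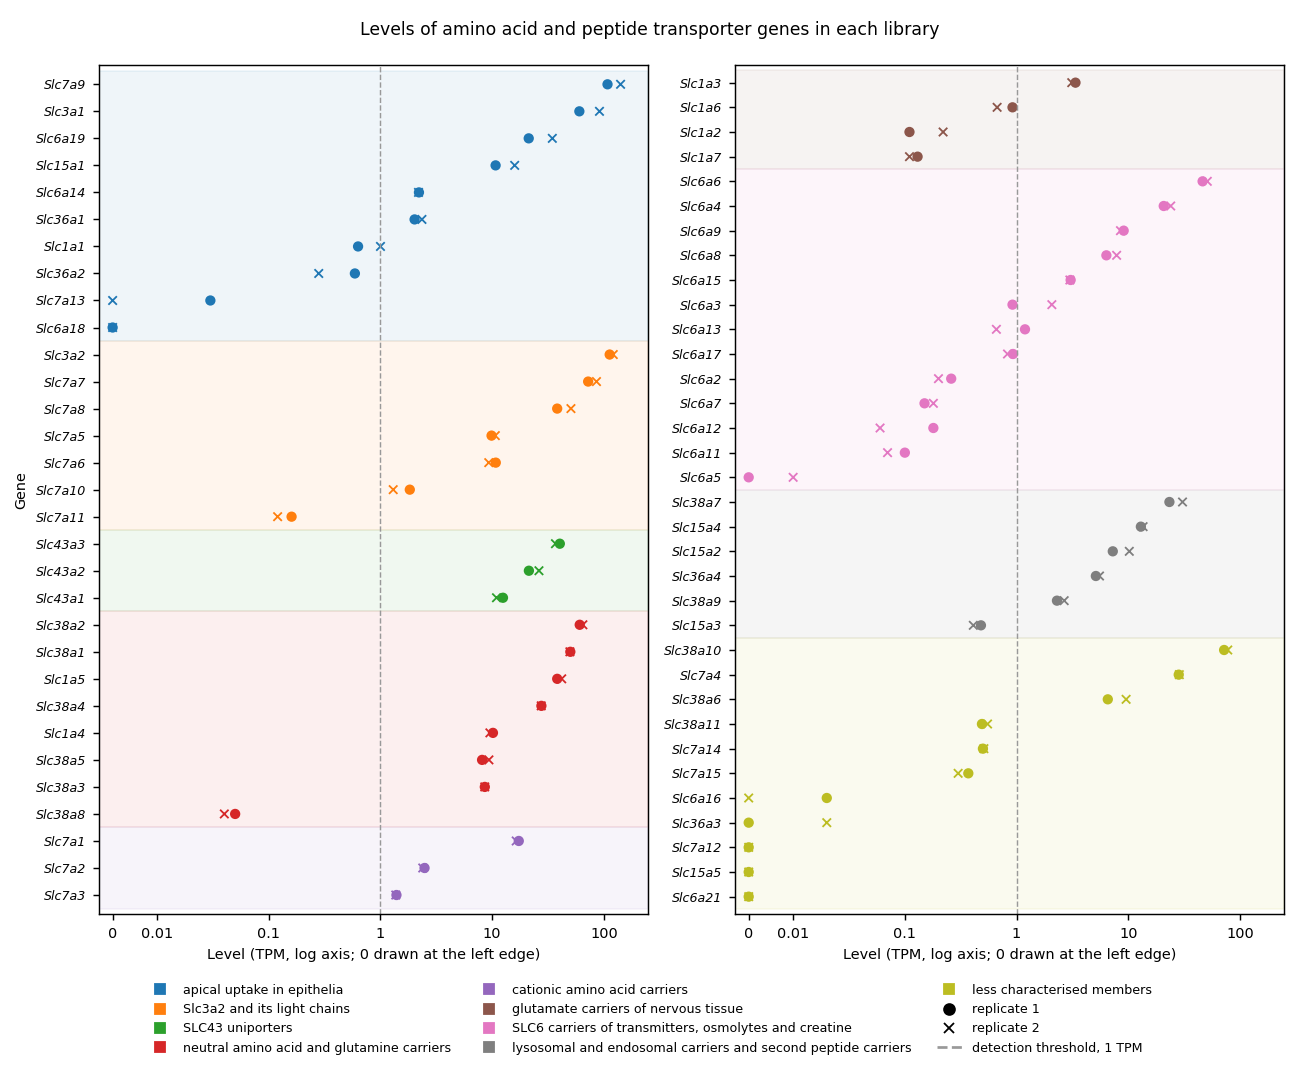
Level of the transporter genes, with 1 of the 66 not drawn, in TPM on a log axis (0 drawn at the left edge), with a circle for replicate 1, a cross for replicate 2, colours for 9 groups by role and a dashed line at the detection threshold of 1 TPM. Slc7a9 and Slc3a2 are the only genes with means above 100 TPM, and 4 genes lie at 0 in both libraries.

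The carriers of the brush border included the transporter with the highest mean level, Slc7a9. In replicate 1 Slc3a2 stood above it (113 against 107.8 TPM). Of 10 genes with a known part in uptake across the apical membrane of epithelia, 6 were detected, and the group took 206 and 289 TPM, or 22.7 ± 3.17% of the transporter sum. Slc7a9 (ENSMUSG00000030492.12; mm10 chromosome 7, 35448796 to 35466036) encodes the light chain b0,+AT, which takes up cystine and cationic amino acids, and it stood at 107.8 and 141 TPM. Its heavy chain Slc3a1 (rBAT; chromosome 17, 85028376 to 85064236) stood at 60.3 and 91.3 TPM. Mutations of either gene are known to cause cystinuria. Slc6a19 (chromosome 13, 73679745 to 73704865), the main sodium-driven carrier of neutral amino acids, stood at 21.2 and 34.6 TPM. The peptide carrier Slc15a1 (PepT1; chromosome 14, 121459621 to 121505252), which takes up dipeptides and tripeptides with protons, stood at 10.7 and 15.9 TPM. For these 4 genes the higher value was in replicate 2.

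The other apical members were low. Slc6a14, a carrier of neutral and cationic amino acids, stood at 2.21 and 2.19 TPM, and the proton-driven Slc36a1 at 2.02 and 2.35 TPM. The glutamate carrier Slc1a1 stood at 0.63 and 1.00 TPM and was not called detected. Slc36a2 had 0.59 and 0.28 TPM, and Slc7a13, a light chain known from kidney, had 0.03 TPM in replicate 1 and was listed at 0 in replicate 2. Slc6a18, a relative of Slc6a19 also known mainly from kidney, had no count in either library. A count of 3 over both libraries would have been 0.0126 TPM for Slc6a18, which is 2223-fold lower than the mean of Slc6a19. This bound covers counting error only. The deposited intervals of Slc6a18 reach 0.0518 and 0.0533 TPM, which allows a smaller difference.

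Promoter sequence was examined because Slc3a1, Slc15a1 and Slc6a19 stood apart between the pools in the same direction, and because Slc7a11, a known target of the amino acid response, was hardly detected. The 250 bases before a RefSeq start site on build GRCm38.p6 are printed 5′ to 3′ on the strand of the gene, in lower case, with matches to the motifs named below in capitals. Where a gene had several windows (nearly) free of annotated exons, the window with the most motif matches was printed. The choice thus favoured windows with matches. The Slc6a19 window lies within the gene span given above, so its start is not the outermost annotated one.
Slc3a1, chr17:85028097-85028346, plus strand: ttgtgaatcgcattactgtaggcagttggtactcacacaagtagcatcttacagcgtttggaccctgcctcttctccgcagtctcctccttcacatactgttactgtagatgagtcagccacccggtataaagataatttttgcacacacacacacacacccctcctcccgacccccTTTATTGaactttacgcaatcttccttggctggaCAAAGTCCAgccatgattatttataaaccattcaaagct
Slc15a1, chr14:121505255-121505504, minus strand: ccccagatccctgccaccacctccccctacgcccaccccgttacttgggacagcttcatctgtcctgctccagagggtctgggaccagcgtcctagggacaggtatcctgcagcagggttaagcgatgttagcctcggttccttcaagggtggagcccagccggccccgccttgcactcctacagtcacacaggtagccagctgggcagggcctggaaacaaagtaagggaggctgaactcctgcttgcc
Slc6a19, chr13:73692637-73692886, minus strand: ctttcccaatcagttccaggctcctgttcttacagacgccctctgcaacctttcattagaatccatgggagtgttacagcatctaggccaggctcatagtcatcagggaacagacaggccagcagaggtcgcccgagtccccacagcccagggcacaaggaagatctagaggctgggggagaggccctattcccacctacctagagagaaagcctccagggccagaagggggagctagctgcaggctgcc
Slc7a11, chr3:50443614-50443863, minus strand: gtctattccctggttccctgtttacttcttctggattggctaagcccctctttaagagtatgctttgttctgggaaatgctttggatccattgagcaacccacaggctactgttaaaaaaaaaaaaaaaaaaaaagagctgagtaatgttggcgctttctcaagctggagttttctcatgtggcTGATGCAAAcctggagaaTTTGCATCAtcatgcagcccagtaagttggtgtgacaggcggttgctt

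Motifs were searched on both strands as fixed letters. These were CAAAGTCCA for HNF4, GTTAATNAT for HNF1 and TTTATNG for CDX, all factors of the gut epithelium, and TGATGNAAN for the element bound by ATF4 in the amino acid response. The Slc3a1 window holds the HNF4 letters with their first base 39 bases before the start, and the CDX letters with their first base 73 bases before it. The HNF4 letters are in 0.406% of 19931 promoter windows of this length, and Slc3a1 is the only one of 47 matched transporters (68 windows) that has them. The CDX letters are in 8.61% of all windows and in those of Slc3a1 and Slc7a15 among the transporters. The HNF1 letters are in 0.677% of all windows and in none of the 68. The windows of Slc15a1 and Slc6a19 hold none of the searched letters, which says only that these letters are not in these windows.

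The ATF4 letters are in 2.90% of all windows and in those of Slc7a11, Slc7a7 and Slc6a21. In Slc7a11 they occur at 66 to 58 bases before the start on the printed strand and again at 48 to 40 bases on the opposite strand. Slc7a11 encodes xCT, which exchanges cystine for glutamate, and it stood at only 0.16 and 0.12 TPM, whereas Slc7a7, with matches at 141 to 133 bases before 1 of its starts and at 243 to 235 bases before another, stood at 72.3 and 85.8 TPM. All promoter windows, of which a gene can have several, had a median of 10 CG pairs. Counted in the first listed window of each gene only, the 28 detected transporters had a median of 12.5 and the 19 others had 6. The apical group also had a median of 6. These counts describe the sequence and no test was made of them.

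The heavy chain Slc3a2 and its light chains formed the largest group by mean level, although the apical group was larger in replicate 2. The group of 7 genes had 6 detected and took 246 and 279 TPM, or 24.3 ± 0.238% of the transporter sum. Slc3a2 (4F2hc, also called CD98; ENSMUSG00000010095.9; chromosome 19, 8706882 to 8723369) stood at 113 and 121 TPM. Slc7a7 (y+LAT1), which exports cationic amino acids across the basolateral membrane and is mutated in lysinuric protein intolerance, was the highest of its light chains. Slc7a8 (LAT2), a basolateral exchanger of neutral amino acids, followed at 38.2 and 50.7 TPM. The closest relatives of these light chains were lower. Slc7a6 (y+LAT2) stood at 10.8 and 9.32 TPM, and Slc7a5 (LAT1), a carrier of large neutral amino acids common in proliferating cells, at 9.87 and 10.7 TPM. Slc7a10, a carrier of small neutral amino acids known from brain, stood at 1.83 and 1.30 TPM, just above the detection threshold.

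Pairs of relatives were compared by the log2 ratio of their TPM + 0.1 in each library. A pair was called apart where the sign agreed in the libraries and the absolute mean was over 3 SD. Of 16 pairs, chosen with earlier results of these data known, 14 were apart. The rule was not applied to pairs of other genes, so this count has no background share beside it. It measures a ratio against the spread between the pools only, and even a ratio of 1.26-fold (Slc38a2 to Slc38a1) passed. Slc7a7 exceeded Slc7a6 by 2.96 ± 0.32 (7.80-fold; 2.14 without correction for length), and Slc7a8 exceeded Slc7a5 by 2.09 ± 0.21 (4.26-fold). Both basolateral light chains typical of absorptive epithelium were thus above their more widespread relatives in each library. Slc7a9 exceeded its own heavy chain Slc3a1 by 0.73 ± 0.15 (1.66-fold), which was no longer apart without correction for length (0.24). The heavy chains were not apart, since Slc3a2 exceeded Slc3a1 by 0.66 ± 0.35.

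The summed light chains exceeded their heavy chain in both libraries. The 6 light chains of Slc3a2 came to 133 and 158 TPM, which was 1.18 and 1.30 times Slc3a2 (1.24 ± 0.0851). Slc7a7 and Slc7a8 made up 83.0% and 86.4% of these light chains. Slc7a9 and Slc7a13 came to 107.8 and 141 TPM, which was 1.79 and 1.54 times Slc3a1 (1.67 ± 0.172), nearly all of it Slc7a9. These are ratios of transcripts, and protein was not measured.

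**Figure D2:**
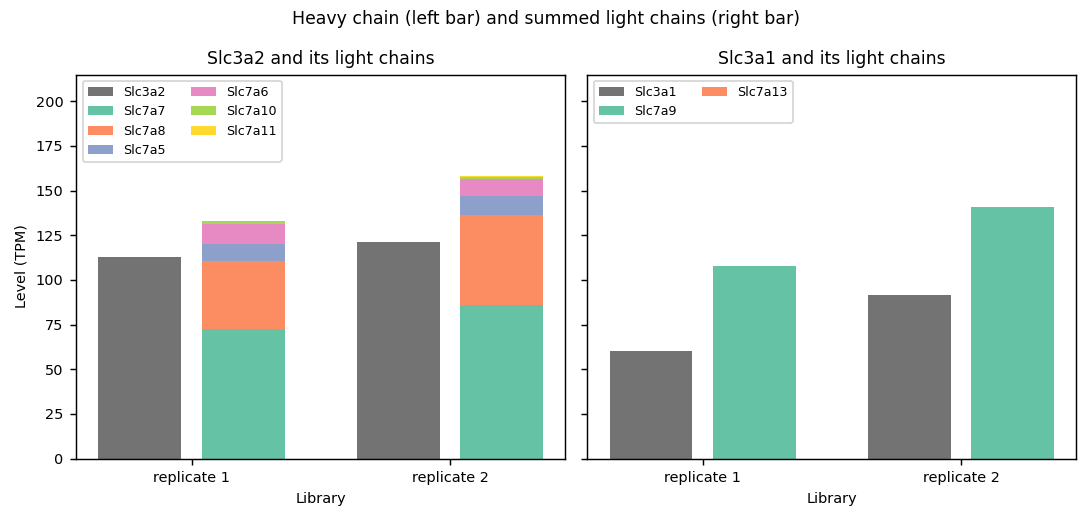
Level in TPM of each heavy chain (grey bar) and its light chains (stacked bar) in replicate 1 and replicate 2, for Slc3a2 on the left and Slc3a1 on the right. In both panels and both libraries the summed light chains exceed the heavy chain, and Slc7a7 with Slc7a8 fills most of the left stacks.

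Facilitated carriers of family SLC43, which need no ion gradient, were all detected. Slc43a3, known as a carrier of purine nucleobases, stood at 40.3 and 36.9 TPM. Slc43a2 (LAT4), which releases essential amino acids at the basolateral side, stood at 21.3 and 26.2 TPM, and Slc43a1 (LAT3) at 12.5 and 10.9 TPM. The ratio of Slc43a2 to Slc43a1 was 1.01 ± 0.35 on the log2 scale and was not called apart, because it was larger in replicate 2. With posterior mean TPM, another deposited estimate of the level, the pair was apart (1.08).

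Carriers of glutamine and small neutral amino acids took 204 and 211 TPM, or 19.3 ± 1.41% of the transporter sum, with 7 of 8 detected. Slc38a2 (SNAT2), which cells are known to induce when amino acids are scarce, stood at 60.8 and 64.9 TPM, Slc38a1 (SNAT1) at 50.1 and 49.6 TPM and Slc1a5 (ASCT2), a glutamine exchanger, at 38.2 and 41.9 TPM. Slc38a4 (SNAT4), known as an imprinted gene of liver and placenta, stood at 27.6 and 27.5 TPM. The values of Slc38a1 and Slc38a4 were almost the same in the pools. Slc1a5 exceeded its relative Slc1a4 (ASCT1; 10.2 and 9.54 TPM) by 2.01 ± 0.16 (4.03-fold). Slc38a2 exceeded Slc38a4 2.28-fold, a log2 ratio of Slc38a4 to Slc38a2 of -1.19 ± 0.07. Slc38a2 exceeded Slc38a1 only 1.26-fold (0.33 ± 0.08), and this order turned when counts were not corrected for length (-0.34). Slc38a3 and Slc38a5, which also carry glutamine and can run in reverse, stood between 8.12 and 9.35 TPM. Slc38a8, known from retina, was not detected, at 0.05 and 0.04 TPM.

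Carriers dedicated to cationic amino acids contributed little. All 3 were detected, but together they took 21.2 and 20.2 TPM. Slc7a1 (CAT1), found in most growing cells, stood at 17.3 and 16.4 TPM. It exceeded Slc7a2 (CAT2; 2.48 and 2.39 TPM) by 2.74 ± 0.02 (6.69-fold). Slc7a3 (CAT3), known from brain, stood at 1.39 and 1.37 TPM.

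Of 4 glutamate carriers of nervous tissue, only Slc1a3 was detected. Slc1a3 (GLAST), a carrier of astrocytes and other glia, stood at 3.37 and 3.12 TPM. Slc1a2 (GLT-1), the main glutamate carrier of adult brain, stood at 0.11 and 0.22 TPM, so that Slc1a3 was 3.69 ± 0.51 higher on the log2 scale (12.9-fold). This size is uncertain, since the TPM of Slc1a2 lies under its deposited interval and rests on 23 and 30 counts. Its posterior means were 1.73 and 1.89 TPM, above the detection threshold, and with them the ratio was 1.01, and a pseudocount of 1 gave 1.87. Slc1a6, known from the cerebellum, had 0.92 and 0.67 TPM, and Slc1a7, known from retina, had 0.13 and 0.11 TPM. Markers of enteric glia and of enteric neurons were all detected, 5 of 5 each, at summed levels of 66.6 and 67.4 TPM for glia and 209 and 184 TPM for neurons.

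In the SLC6 group of transmitter, osmolyte and creatine carriers, 5 of 14 genes were detected and a single gene took most of the level. Slc6a6 (TauT), the taurine carrier, stood at 46.3 and 51.0 TPM out of 89.3 and 98.5 TPM for the group. Slc6a4 (SERT), which takes up serotonin and is known from both nerve cells and enterocytes, stood at 20.8 and 24.0 TPM. The glycine carrier Slc6a9 (GlyT1) stood at 9.10 and 8.52 TPM, the creatine carrier Slc6a8 at 6.37 and 7.87 TPM and Slc6a15, a carrier of neutral amino acids known from brain, at 3.03 ± 0.0354 TPM. Taurine thus had far more carrier mRNA than creatine, with Slc6a6 6.78-fold above Slc6a8, a log2 ratio of Slc6a8 to Slc6a6 of -2.76 that was -3.95 without correction for length. The other glycine carrier, Slc6a5 (GlyT2) of inhibitory nerve cells, had 0 and 2 counts.

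The remaining SLC6 transmitter carriers were at or under the threshold. The dopamine carrier Slc6a3 (DAT) had 0.92 and 2.07 TPM, on both sides of it, and the GABA carrier Slc6a13 (GAT2) had 1.19 and 0.66 TPM. Slc6a17, a vesicular carrier of nerve cells, had 0.93 and 0.83 TPM, but its posterior means of 1.57 and 1.48 TPM lay above the threshold. The noradrenaline carrier Slc6a2 had 0.26 and 0.20 TPM and the proline carrier Slc6a7 0.15 and 0.18 TPM. The GABA carriers Slc6a11 and Slc6a12 lay between 0.06 and 0.18 TPM. For Slc6a12 the TPM lies under its deposited interval, and its posterior means were 0.71 and 0.54 TPM. At the threshold, ranked by the lower of both libraries, the detected members with the lowest values were Slc7a10, Slc7a3 and Slc36a1, and the highest ones not called were Slc6a3, Slc6a17 and Slc1a6.

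Carriers of lysosomes and endosomes, with the second peptide carriers, took 51.5 and 63.0 TPM, and 5 of 6 were detected. Slc38a7, which releases glutamine from lysosomes, stood highest at 23.4 and 30.6 TPM. Slc15a4, a lysosomal carrier of histidine and peptides, stood at 13.0 and 13.6 TPM, and exceeded Slc15a3 (0.48 and 0.41 TPM) by 4.62 ± 0.18 (24.6-fold; 3.30 with a pseudocount of 1). Slc38a9, the lysosomal arginine sensor upstream of mTORC1, stood at 2.30 and 2.67 TPM, lower than Slc36a4 at 5.13 and 5.53 TPM. Slc36a4 was 2.38-fold above Slc36a1. The high-affinity peptide carrier Slc15a2 (PepT2), best known from kidney and brain, stood at 7.27 and 10.2 TPM. Slc15a1 exceeded Slc15a2 by 0.59 ± 0.05 (1.51-fold). The pair was apart in spite of the small ratio, which was 1.66 on the log2 scale without correction for length.

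The less characterised members had 3 of 11 genes detected and took 108.4 and 117 TPM, most of it from a single gene. Slc38a10 stood at 72.1 and 77.8 TPM, close to Slc7a7. Slc7a4, a relative of the cationic carriers without an established transport activity, stood at 28.3 and 28.7 TPM, above Slc7a1. Slc38a6 stood at 6.56 and 9.57 TPM. The genes without a count in either library were Slc7a12, Slc15a5 and Slc6a21 of this group and Slc6a18 of the apical group.

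Between the pools, a single transporter among those with enough counts differed by 2-fold or more with deposited intervals apart. Where intervals were apart without a fold minimum, the higher value was in replicate 2 with a single exception. A mean count of at least 100 was reached by 39 transporters, and for the 27 others no call was made. A deposited TPM ratio of at least 2-fold, with deposited TPM intervals that did not overlap, was found for Slc6a3 alone, which was higher in replicate 2 (91 and 199 counts, 2.13-fold on the TPM + 0.1 scale). By this rule 0.458% of 12885 protein-coding genes were higher in replicate 2 and 0.349% in replicate 1. Without a fold minimum, 13 of 39 transporters were higher in replicate 2, 1 was higher in replicate 1 and the intervals of 25 overlapped. The same rule called 13.7% of protein-coding genes higher in replicate 2 and 12.6% higher in replicate 1. Other Slc genes leaned the same way, with 51 of 177 higher in replicate 2 and 15 higher in replicate 1. These calls compare 2 pools and not 2 conditions, and the level of the deposited intervals is not stated in the files.

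After Slc6a3, the 3 largest of these differences were in apical carriers. On the TPM + 0.1 scale, Slc6a19 was 1.62-fold, Slc3a1 1.51-fold and Slc15a1 1.48-fold higher in replicate 2. The apical Slc7a9 was 1.31-fold higher. Of the basolateral light chains, Slc7a8 was 1.33-fold and Slc7a7 1.19-fold higher, and the basolateral uniporter Slc43a2 was 1.23-fold higher. Slc15a2 was 1.40-fold and Slc38a7 1.31-fold higher. The other calls in this direction were smaller, at 1.10-fold for Slc6a6, 1.08-fold for Slc3a2 and 1.07-fold for Slc38a2. Slc7a6, the relative of Slc7a7, was the exception, at 10.8 and 9.32 TPM (0.867-fold).

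By group, the median log2 ratio of replicate 2 to replicate 1 was 0.48 for the 6 apical genes at a mean of at least 1 TPM, and 0.11 for all 40 such transporters. It was -0.01 over 13509 protein-coding genes, whose central 90% ran from -0.32 to 0.40. The median was 0.11 for Slc3a2 and its light chains and -0.05 for the cationic carriers. Of the 40 transporters, 25 were higher in replicate 2, beside 6306 of the 13509 protein-coding genes and 119 of 185 other Slc genes. Of the same 40, 12 (30%) differed more than 1.2-fold, beside 18.01% of protein-coding genes. The other Slc genes had a median of 0.09. Of the neutral amino acid and glutamine carriers 1 of 7 had intervals apart, and of the apical genes 4 of 6, a difference that was not tested.

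Markers of several cell types differed between the pools as well. The 5 enterocyte markers (Fabp1, Fabp2, Alpi, Apoa4 and Lct) had a median log2 ratio of 0.69 and summed to 6701 and 10053 TPM. They ranged from 1.34-fold for Alpi to 1.77-fold for Apoa4, and the acinar markers from 1.14-fold for Cpa1 to 1.95-fold for Cela2a. The apical genes at a mean of at least 1 TPM ranged from 0.991-fold for Slc6a14 to 1.62-fold for Slc6a19. The general epithelial markers had a median of 0.12. The acinar markers had a median of 0.44, hepatocyte markers -1.29 and erythroid markers -0.35, with enteric neurons at -0.21 and smooth muscle at -0.02. The farthest were the markers of steroid cells of adrenal and gonad, with a median of -2.52 over the 2 of 3 at a mean of at least 1 TPM (Cyp11a1 at 19.2 and 5.51 TPM, Star at 6.26 and 0.57 TPM). The part of these cell types in the transporter differences was not tested, and in bulk tissue fewer cells of a type and less RNA per cell cannot be told apart.

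**Figure D3:**
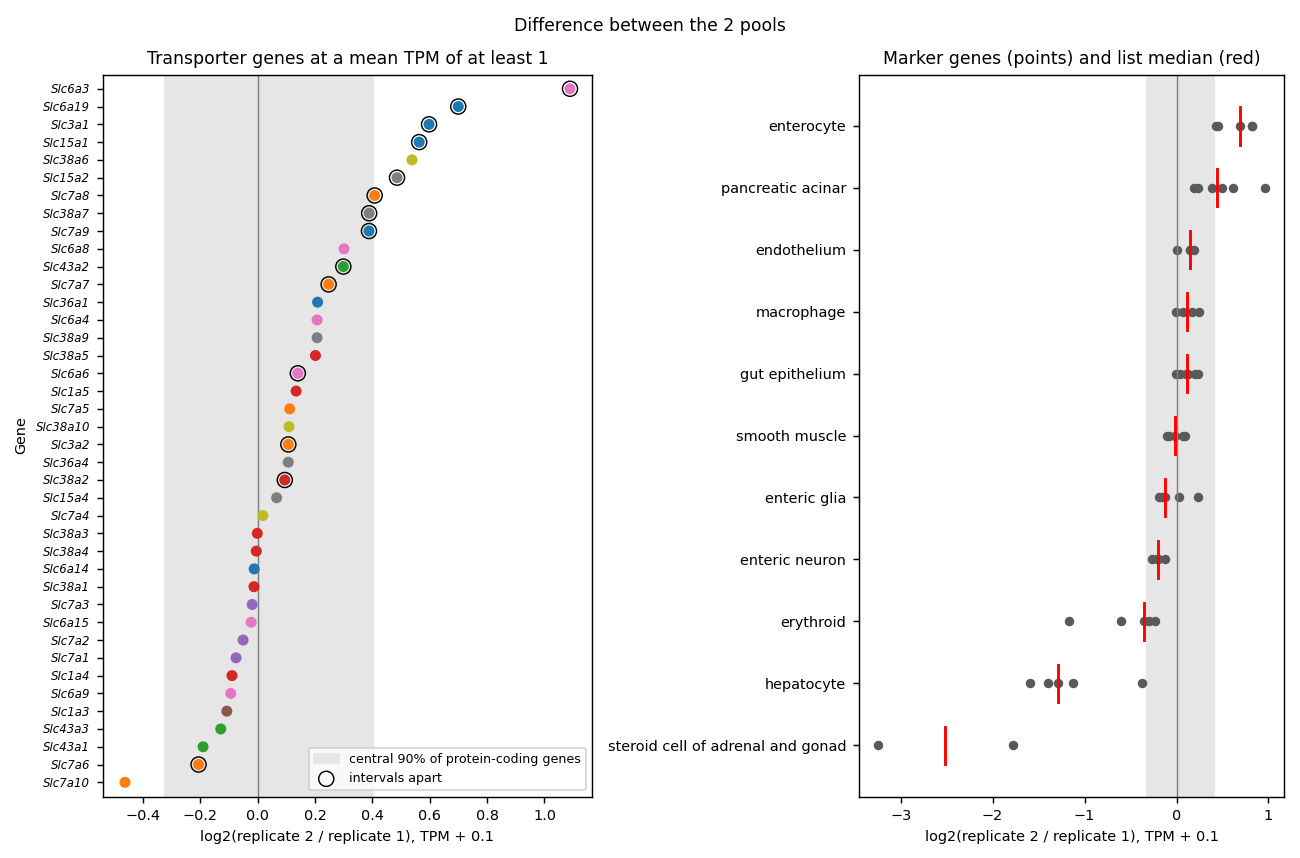
Left, log2 ratio of replicate 2 to replicate 1 (TPM + 0.1) for the 40 transporters at a mean of at least 1 TPM, in the colours of the role groups, with the central 90% of protein-coding genes shaded and genes whose deposited intervals were apart ringed. Right, the same ratio for the genes of the marker lists at a mean of at least 1 TPM, with each list's median as a red bar. Slc6a3, Slc6a19, Slc3a1 and Slc15a1 lie to the right of the shaded range, as do Slc38a6, Slc15a2, Slc7a8 and the enterocyte markers. The acinar markers Cela2a, Prss2 and Cel also lie to the right. Slc7a10, the hepatocyte and steroid cell markers and several erythroid markers lie to the left.

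The genes that work with these carriers were examined as further lists. Of 7 membrane partners and neighbours, 6 were detected, 5 had intervals apart with the higher value in replicate 2 (13.7% of protein-coding genes) and none in the other direction (12.6%), and the median log2 ratio was 0.35. Cltrn, a subunit of Slc6a19 in kidney, stood at 7.10 and 7.16 TPM. The proline carrier Slc6a20a stood at 27.8 and 34.1 TPM, the basolateral aromatic amino acid carrier Slc16a10 at 24.9 and 35.0 TPM and the scaffold Pdzk1, which binds brush border carriers, at 47.3 ± 13.1 TPM. The sodium-proton exchanger Slc9a3, which supplies protons for Slc15a1, stood at 4.39 and 5.88 TPM.

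Peptidases that cut peptides at the brush border or in the cell were all detected, 11 of 11. Their median log2 ratio was 0.32, and 9 had intervals apart with the higher value in replicate 2, a call made for 13.7% of protein-coding genes. Genes of the amino acid response, which ATF4 drives when amino acids run short, were also all detected (10 of 10), but lay on the other side. Their median was -0.18, and 7 had intervals apart with the higher value in replicate 1, a call made for 12.6% of protein-coding genes. Chac1 had 5.10 and 2.34 TPM, Trib3 6.04 and 3.76 TPM, Asns 95.8 and 81.7 TPM and Atf4 itself 135 and 120 TPM. Of transporters linked to this response above, Slc38a2 had its higher value in replicate 2 (60.8 and 64.9 TPM). Slc7a11 had its higher value in replicate 1, near the floor (0.16 and 0.12 TPM). The transporters of this response were not examined as a list. The list of amino acid sensors of mTORC1 (11 of 11 detected) had a median of 0.04, and that of glutamine and glutamate enzymes (7 of 7) had -0.02 with no interval apart.

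The leading transcript was mostly shared between the pools. Among transporters with at least 2 annotated transcripts and a mean of at least 5 TPM, the transcript with the largest share was the same in 23 of 24 (95.8%), beside 93.8% of 7785 protein-coding genes. For Slc7a9 it was the coding transcript Slc7a9-203 at 77.4 ± 0.0495% of the gene, for Slc3a2 it was Slc3a2-201 at 85.9 ± 0.424%, and for Slc43a3 it was Slc43a3-201 at 79.4 ± 0.276%. Slc38a10, with 16 transcripts, had 62.6 ± 0.757% in Slc38a10-201, and Slc38a1 had 67.9 ± 2.48% in Slc38a1-201. These leading transcripts are all annotated as coding. The exception was Slc1a4, in which Slc1a4-202 had 67.9% and 47.1% and Slc1a4-201 had 32.1% and 52.9%; by posterior mean shares Slc1a4-202 led in both libraries, and the count became 24 of 24.

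A few transporters had much of their level in transcripts annotated as not coding, or much shorter than another transcript of the gene. In Slc1a5 the retained-intron transcript Slc1a5-202 had 49.0 ± 3.16% and the coding Slc1a5-201 had 44.3 ± 3.01%, and in replicate 1 the shares were almost equal (46.8% and 46.4%). Slc6a8, Slc15a2, Slc38a6, Slc38a3 and Slc15a4 were chosen after their values were seen. In Slc6a8 the leading transcript Slc6a8-202, at 63.6 ± 6.43%, is annotated as a target of nonsense-mediated decay. In Slc15a2 the leading transcript was Slc15a2-205 of 1068 nt (75.7 ± 1.96%), while Slc15a2-201 of 3993 nt had 16.9 ± 0.361%. In Slc38a6 the short Slc38a6-203 of 359 nt had 32.0% and 51.6% of the gene, and the deposited intervals of the whole gene overlapped (263 and 316 counts). Minor transcripts could shift more than the leading ones. In Slc38a3 the leading Slc38a3-209 had 70.2% and 50% of the gene, Slc38a3-203 had 1.95% and 27% and Slc38a3-201 had 18.3% and 2.44%. In Slc15a4 the decay-target transcript Slc15a4-205 had 21.5% and 11.7%. Shares of overlapping transcripts are estimates from shared reads.

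**Figure D4:**
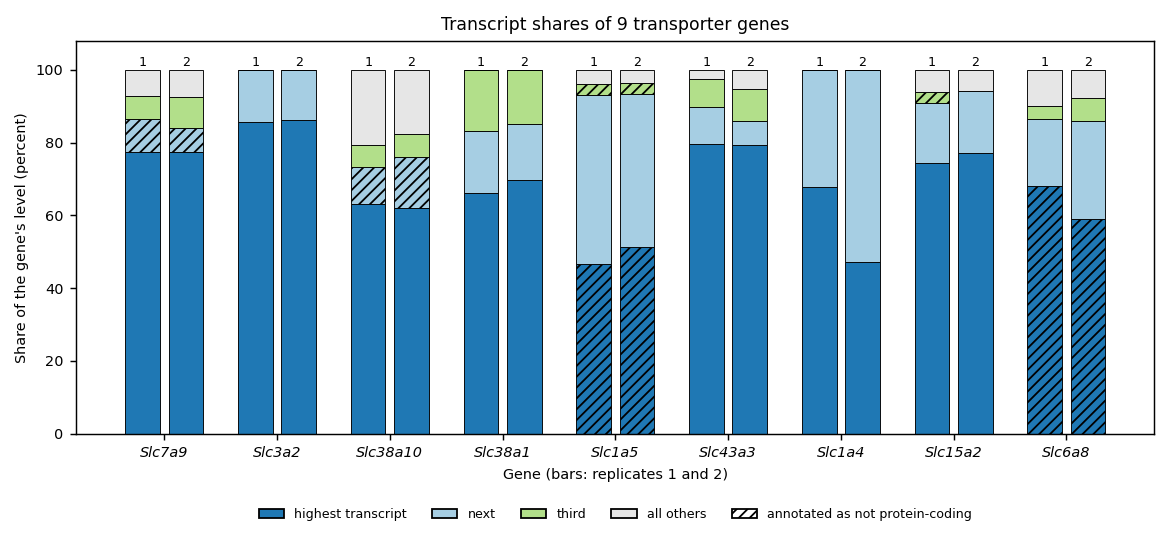
Share of each gene's level by transcript, in percent, for 9 transporters in replicate 1 (bar 1) and replicate 2 (bar 2), with the 3 highest transcripts coloured, all others grey, and hatching for transcripts not annotated as protein-coding. The leading transcript falls below the next one in replicate 2 of Slc1a4, and hatched transcripts lead in Slc1a5 and Slc6a8.

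Several transporters lie near or over other genes, which bears on how well their reads could be assigned. In all, 55 members had whole counts in both libraries and 11 had fractional ones, which are reads shared with another feature. The exons of 10 members overlap exons of a gene on the opposite strand, and 8 of the 11 belong to these. For 7 of the 8, the counts of the member and its overlapping genes added up to whole numbers within 0.025. Slc3a1 shares 601 exon bases (26.5% of its exons) with Prepl, which stood at 18.7 and 20.5 TPM, and together they had 5809 and 7762 counts. Slc7a7 and Oxa1l had 6710 and 7015 counts together, and Slc7a10 and Lrp3 had 223 and 195, of which 49.8 and 44.2 went to Slc7a10. Strand use in counting, not given in the sources used here, is unknown, so reads of these genes and their antisense neighbours may not be separable.

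Some neighbouring transporters stood far apart in level and others did not. By the lowest coordinates of the genes, 16 members lay within 250 kb of another, in 11 pairs. On chromosome 13, Slc6a18 had no count although it lies 17993 bases from Slc6a19, and Slc6a3, 143 kb away, stood at a mean of 1.495 TPM beside 27.9 for Slc6a19. On chromosome 15 Slc38a1 and Slc38a2, 116 kb apart, were both high, at means of 49.9 and 62.8 TPM. On chromosome 2 Slc43a1 and Slc43a3, 97.7 kb apart, stood at means of 11.7 and 38.6 TPM. On chromosome 11, Slc36a1 was detected while Slc36a2 and Slc36a3 were not. Slc36a1 and Slc36a2 share stretches of sequence, so their split of reads is uncertain.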

How the data were processed

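Total RNA from 2 pools of embryonic mouse intestine was sequenced, with ERCC spike-in transcripts added per the labels. Per the text deposited beside the tables, reads were assigned to GENCODE M4 on mm10, whereas aligner, quantifier, versions and use of strand (not given in the sources used here) are unknown. Deposited expected counts are reads estimated for each gene or transcript, without normalisation. The deposited TPM values correct them for effective length and scale each library to the same total, spike-ins included. Deposited percent values are transcript shares within a gene. The deposited interval bounds, treated as a non-negative signal per the file headers, belong to posterior means of TPM, and their level is not stated. For 8 of the 66 transporters the TPM lies under its own interval.

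Symbols, types and mm10 coordinates come from GENCODE M21, to which 42462 (98.0%) of 43346 gene identifiers matched. Left out were 26248 features that name no gene, with 0.000147% and 0.000157% of counts. Promoters came from a RefSeq table of build GRCm38.p6, in which 47 transporters matched.

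Expected counts on genes were 41279206 and 40758084. Without molecular identifiers reads cannot be taken as independent molecules, so intervals and the floor of 3 counts cover counting error only. The pools are separate biosamples, and spread between them may be partly technical. Ratios used TPM with a pseudocount of 0.1. Calls between pools needed a mean count of at least 100. No test between groups was made, since there is 1 group. Named were the 3 highest genes of each of 9 role groups, the genes of 16 pairs, those called between pools and those nearest the threshold, with other members as context. The members, lists, pairs and motifs were chosen with earlier results of these data known, and Slc6a21 was put in a role group after the files were seen. A few genes are not reported here by name.

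Work used Python 3.11.15, numpy 2.4.6, pandas 2.3.3, scipy 1.17.1 and matplotlib 3.10.9. For alternative scalings, edgeR 4.0.16 (TMM) and DESeq2 1.42.0 (size factors) ran on expected counts, rounded to integers, in R 4.3.3. Other alternatives were posterior means, pseudocounts, filters, Poisson intervals, uncorrected counts, and leaving out each library.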

Additional observations from a re-analysis of the deposited data

How the results depend on the processing

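Of all alternatives tried, 283 kept their call (levels stayed within the SD of the libraries and counts within 1.5 times), 28 moved a value, 1 lost a call, 1 gained a call and 1 reversed. The 283 include levels with a library left out, which could not move. With n = 2 each value always lies within the SD of the mean, so these cases say nothing about stability. A ratio that kept its call could still change in size, as that of Slc1a3 to Slc1a2 did from 3.69 to 1.01 with posterior means. Without length correction, the transporters held 0.232% of expected counts in place of 0.108% of TPM, the ratio of Slc7a9 to Slc3a1 fell to 0.24 on the log2 scale and was no longer apart, and the ratio of Slc38a2 to Slc38a1 turned to -0.34. With posterior mean TPM the ratio of Slc43a2 to Slc43a1 was 1.08 and apart. A minimum of 1.5-fold gave 3 transporters higher in replicate 2, and exact Poisson intervals (95% level) gave 2 with the higher value in replicate 1. In these cases the cause was not tested. Posterior means moved 25 of 62 levels by more than the SD of the libraries, which for n = 2 can be very small. Among the 40 transporters at a mean of at least 1 TPM, the posterior mean exceeded 1.2 times the TPM in 2. Detected were 41 transporters without replicate 1 and 40 without replicate 2. Rescaling intervals by TMM, DESeq2 size factors or spike-ins was added after seeing the data and gave 14 to 17 transporters higher in replicate 2. The median log2 ratio of the 40 was 0.10 to 0.13 under the other scalings, and 0.04 with no filter on low values. No paired analysis was possible because a single group was sequenced. Genes under 100 mean counts, 27 of the 66, were too shallow for a call between pools.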
